A study of Mus musculus with 102 samples.

Results

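Gene expression of epidermal stem cells of aged mice was compared with that of adult mice during the light phase, on control diet, at zeitgeber times (hours from lights on) ZT4 and ZT8. The comparison took every control-diet array of these 2 time points, 14 arrays beside 88 others in the series: 7 from aged mice (83 to 97 weeks old; 4 at ZT4 and 3 at ZT8) and 7 from adult mice (47 to 57 weeks old; 4 at ZT4 and 3 at ZT8). All mice, aged and adult alike, were C57B6/J animals with a Per1-Venus BAC transgene, in which a fluorescent protein reports the activity of the clock gene Per1. The control diet was given ad libitum for 25 weeks after 3 weeks of adaptation. The 88 others belong to the remaining times (ZT0, ZT12, ZT16 and ZT20) and to calorie restriction (CR), in which mice of the same ages received 30% less food than the ad libitum intake. Each level is a log2 fluorescence value of an Affymetrix mouse array, and each difference is aged minus adult, the mean of the differences at ZT4 and ZT8 unless a time is named. Mice taken on the same day shared a time point, and neither the day nor the sex of an animal is given for any array.

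The basal layer of the epidermis holds stem cells that renew the skin, anchor it to the basement membrane and express keratins of the basal layer. In these cells the circadian clock, a loop in which the activators Clock and Arntl drive their own repressors of the Per and Cry families, sets the daily timing of metabolism, DNA synthesis and division. The clock's output factors, such as Dbp, Tef and Nfil3, pass that timing on to other genes.

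Basal markers and some markers of differentiating epidermis were among the brightest genes. All 12 basal markers measured, among them the keratins Krt5 and Krt14 and the integrin Itga6, lay between percentiles 87.4 and 100 of the 17097 genes in mean level. Some markers of the differentiating layers above were also high, with Krt1 at percentile 99.4 and Krt10 at 99.2. The median of 15 such markers was at 84.8, but Ivl stood at 61.6, Lor at 59.2, Tgm1 at 49.3 and Flg at 2. Lists of other cells had lower medians, at 58.65 for Langerhans and dendritic cells, 35.5 for T cells, 33.8 for endothelium and pericytes and 28.5 for fibroblasts, but each spanned a wide range. Within the Langerhans list Cd207 stood at 20.8 and Epcam at 92.6, within the T-cell list Cd3e stood at 26.3 and Thy1 at 83.3, and within the fibroblast list Pdgfra stood at 3.6 and Sparc at 94.3. The mean of the basal markers ran from 10.996 to 11.45 over the aged arrays and from 11.12 to 11.45 over the adult arrays, so the groups overlapped. The mean of the T-cell markers ran from 5.33 to 5.54 in aged and from 5.31 to 5.66 in adult mice. The mean of 9 sebaceous gland markers ran from 6.39 to 6.72 in aged and from 6.64 to 6.81 in adult mice, with an overlap. In bulk samples, fewer cells of a type and less RNA per cell cannot be told apart.

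Before the results, 2 features of the arrays need stating. Xist, which is expressed from the inactive X chromosome of females, exceeded the Y-linked genes on 3 of 7 aged and 5 of 7 adult arrays; at ZT4 the numbers were 1 of 4 aged and 3 of 4 adult. The aged ZT4 array of replicate 2 also stood apart: the 3′ minus 5′ signal of Actb and Gapdh, a measure of RNA integrity, was 0.41 there and between -0.11 and 0.07 on the other 13 arrays. Where a light phase difference given here moved by over 1.5 times without this array, or its sign turned, the value without it is given too or its change of sign is stated.

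Only 1 gene passed the test between aged and adult mice. Rgcc, the regulator of cell cycle, which encodes a small protein that binds a cyclin-dependent kinase, was lower in aged mice. In limma's moderated test with Benjamini-Hochberg adjustment, 1 of 13383 genes was called (0.00747%) at an adjusted p under 0.05, none of them higher in aged mice. At an unadjusted p under 0.05, 275 genes (2.05%) differed, 117 higher (0.874%) and 158 lower (1.18%), where chance alone gives 669. That split depended on scaling: it was 173 higher and 125 lower with each array centred on its median, and 206 higher and 119 lower after a further quantile normalization. The median difference over all tested genes was -0.01.

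**Figure D1:**
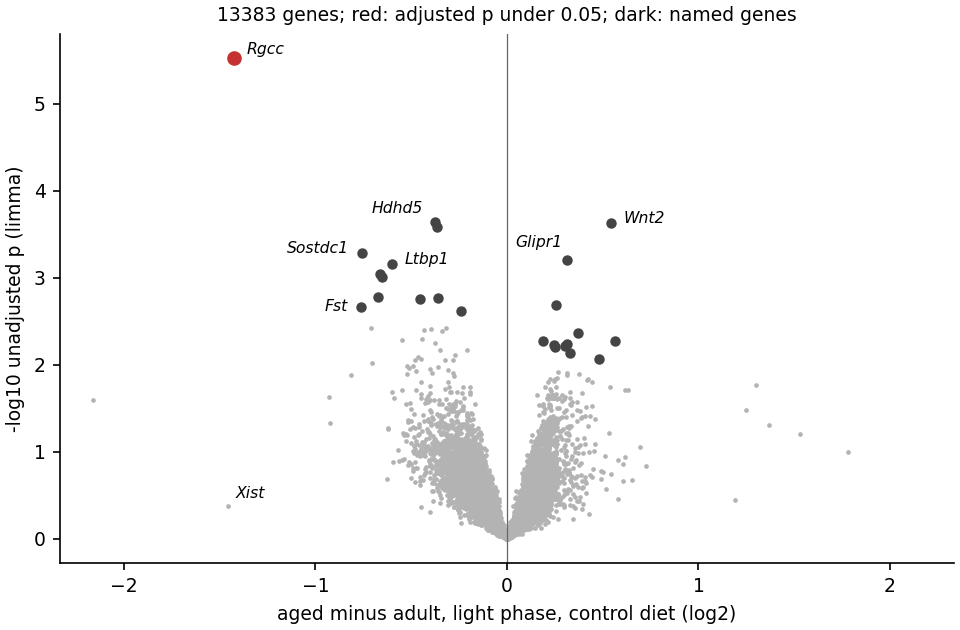
Difference between aged and adult mice (x axis, log2, mean of ZT4 and ZT8) against -log10 of the unadjusted limma p (y axis) for each of the 13383 genes tested; dark points are the 24 genes named by rank and the red point is the gene past the threshold. Rgcc stands alone at -1.42, while most genes form a narrow cloud around 0 and Xist, at -1.46, has a large error.

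The spread between arrays set which differences could be detected. The median standard error of a difference was 0.131, and its 95% interval reached a median of 0.261 to either side. For 80.1% of the genes the interval lay within 0.5 log2 units of 0, and for 99% within 1 log2 unit. When differences were put into simulated data for 200 genes of the 13383, the same test recovered 96.6% of those of 1 log2 unit, 74.6% of those of 0.6 and 16.8% of those of 0.3. The simulated noise was independent between genes and between arrays. Calls among the 200 changed genes also ease the Benjamini-Hochberg threshold, so these shares do not carry over to data with 1 call. In the real data Sostdc1, at -0.76 (limma, unadjusted p = 0.00052), did not pass. Differences of 0.3 log2 units were mostly missed even in the simulation, and larger ones could be missed in the real data.

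Rgcc, measured by 1 probe set, had log2 levels of 6.68, 6.89, 6.90 and 7.98 in the aged mice at ZT4, and of 6.94, 7.16 and 7.45 in the aged mice at ZT8. In the adult mice it had levels of 9.18, 7.80, 8.34 and 8.18 at ZT4, and of 8.55, 8.48 and 9.29 at ZT8. The groups did not overlap at ZT8, but the share of genes that chance alone separates with 3 arrays an age was not worked out. At ZT4 the groups overlapped through a single aged array, replicate 4 at 7.98, which lay above the adult array of replicate 2 at 7.80. The difference was -1.42 ± 0.284 (SE, n = 7 against 7), a 2.68-fold lower level with a 95% interval of 1.81 to 3.97 (limma, adjusted p = 0.0398). It was -1.26 at ZT4 (adjusted p = 0.487) and -1.59 at ZT8 (adjusted p = 0.9999), and the difference between these times was -0.33 (adjusted p = 0.986).

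The call was close to the threshold. Without any 1 of 12 arrays it was lost (adjusted p 0.0565 to 0.679), and it was kept without aged ZT4 replicate 4 (0.00766) or adult ZT4 replicate 2 (0.0202). It was also lost in 6 of 12 other ways of processing, among them a fit on only the 14 arrays of the comparison (0.268). The difference itself lay between -1.57 and -1.29 whichever array was left out. Rgcc was -1.44 with the Xist minus Y-linked signal as a covariate (adjusted p = 0.0392), -1.43 with the 3′ minus 5′ signal as a covariate (adjusted p = 0.0408) and -1.39 without aged ZT4 replicate 2 (adjusted p = 0.137).

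Rgcc was then measured in 7 sets of mice that share no array with this comparison, a choice made after its light phase result was seen. Under CR in the light phase its levels ran from 7.26 to 8.44 (median 7.57) in 7 aged mice and from 8.28 to 9.32 (median 8.92) in 10 adult mice. The difference was -1.20 ± 0.263 (SE), and an exact two-sided permutation test of the ages within each time point gave p = 0.00051, or 0.00357 adjusted over the 7 sets; limma's p adjusted over all genes was 0.115. At ZT0 under CR the levels ran from 6.11 to 7.35 in 5 aged and from 8.27 to 8.67 in 5 adult mice, with no overlap (difference -1.71, exact permutation p = 0.00794, adjusted 0.0278; limma over all genes, adjusted 0.0115). At ZT0 on control diet the levels overlapped, from 6.32 to 7.84 in 4 aged and from 7.17 to 8.67 in 4 adult mice (difference -0.84, exact permutation p = 0.143, adjusted 0.333).

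At ZT12 and at night no difference passed the same test. It was 0.20 at ZT12 and 0.10 in the dark phase (ZT16 and ZT20) on control diet, and -0.38 at ZT12 and -0.04 in the dark phase under CR, with exact permutation p from 0.421 to 0.865. Adult mice on control diet averaged 8.37 at ZT4, 8.77 at ZT8, 7.83 at ZT16 and 7.29 at ZT20, and aged mice averaged 7.11, 7.18, 7.58 and 7.75 at those times. The 2 night times had opposite signs, with the aged mean lower at ZT16 and higher at ZT20, so the dark phase value averages over them. The light phase difference minus the dark phase difference was -1.53 ± 0.383 (SE; limma, unadjusted p = 0.000139), which did not pass over all genes (adjusted p = 0.9995). The control diet difference minus the CR difference in the light phase was -0.22 with a 95% interval of -0.99 to 0.55.

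**Figure D2:**
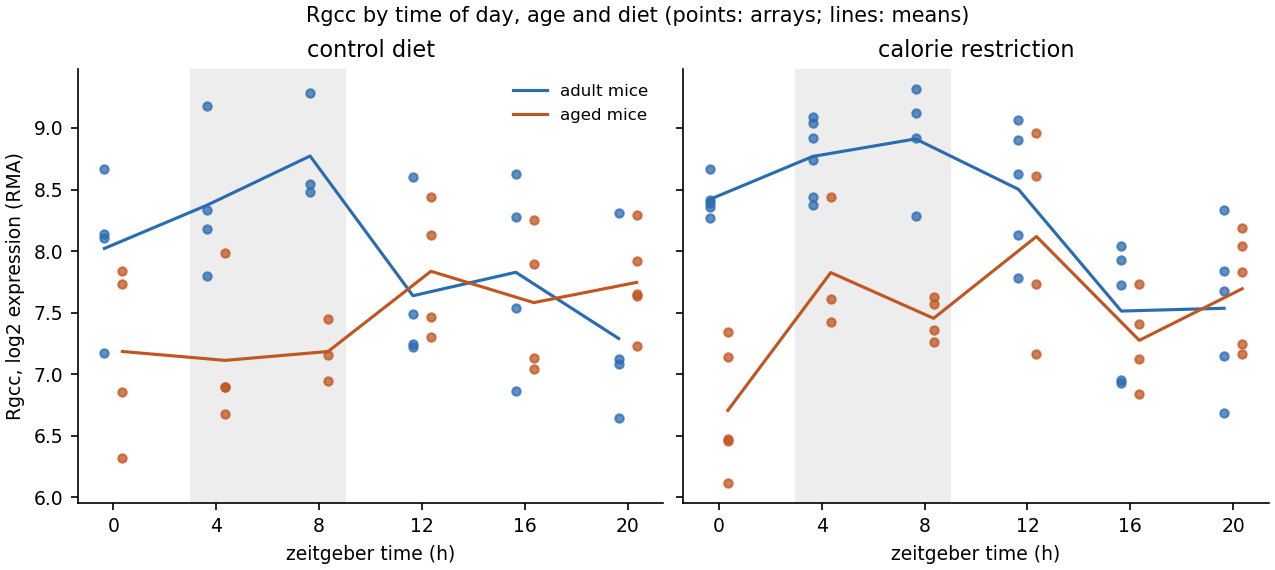
Log2 level of Rgcc (y axis) by zeitgeber time (x axis, hours) on control diet and under CR; points are arrays, lines join group means, blue is adult, orange is aged, and the grey band marks ZT4 and ZT8. On control diet the adult mean is 8.77 and the aged mean 7.18 at ZT8, while they are 7.83 and 7.58 at ZT16 and 7.29 and 7.75 at ZT20.

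The 250 bases upstream of the Rgcc start are printed with those of Per3, a clock gene whose mean level in adult mice was 6.81 at ZT4 and 8.42 at ZT8 on the same arrays, to show which letters of known daily and general elements each holds. They come from RefSeq on GRCm38.p6, read 5′ to 3′ along the gene. Rgcc lies on the minus strand at chr14:79301636-79301885 and Per3 on the minus strand at chr4:151044666-151044915. Capitals mark the E-box CACGTG bound by Clock and Arntl, the D-box TTATGTAA or TTACGTAA bound by Dbp, Tef and Hlf, the GC box GGGCGG (each searched on both strands) and TATAA on the sense strand.
Rgcc: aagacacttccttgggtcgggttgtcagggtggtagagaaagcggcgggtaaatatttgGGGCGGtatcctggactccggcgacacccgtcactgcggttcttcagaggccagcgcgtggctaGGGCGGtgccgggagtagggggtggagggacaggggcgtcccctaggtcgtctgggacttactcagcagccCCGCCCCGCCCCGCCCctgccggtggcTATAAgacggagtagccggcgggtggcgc
Per3: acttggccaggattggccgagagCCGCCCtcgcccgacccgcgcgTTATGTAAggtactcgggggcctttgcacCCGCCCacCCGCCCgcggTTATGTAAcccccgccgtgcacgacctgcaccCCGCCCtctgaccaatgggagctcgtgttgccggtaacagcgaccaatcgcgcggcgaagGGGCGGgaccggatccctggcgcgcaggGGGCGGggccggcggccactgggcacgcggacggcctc
The Rgcc window held GGGCGG 2 times on the sense strand and 3 times on the other, where the 3 matches overlap by 1 base and form 1 run, and it held TATAA 29 bases before the start. The Per3 window held 2 matches of the D-box and 6 of the GC box. Of all 32851 promoter windows of this length, 6.02% held CACGTG, 0.819% TTATGTAA, 0.113% TTACGTAA, 32.7% GGGCGG and 16% a sense TATAA. The letters CACGTG, TTATGTAA and TTACGTAA were not in the Rgcc window.

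No other gene passed the test, so the following genes, those with the smallest p, are given as values. The secreted antagonists Sostdc1, which acts on BMP and Wnt ligands, and Fst (follistatin), which binds activins, stood near the top of the lower genes. Sostdc1 ran from 8.27 to 9.20 (median 8.92) in aged mice and from 9.42 to 9.97 (median 9.61) in adult mice. Every aged array lay below every adult array, and the difference was -0.76 ± 0.210 (SE, n = 7 against 7; limma, unadjusted p = 0.00052). Fst ran from 7.03 to 7.77 (median 7.48) in aged mice and from 7.84 to 8.70 (median 8.22) in adult mice, with a difference of -0.76 ± 0.241.

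Ltbp1, which holds latent TGF-beta in the matrix, ran from 4.68 to 5.00 in aged and from 5.15 to 6.23 in adult mice (difference -0.60 ± 0.170). Its aged levels lay near 4.735, the mean level under which genes were not tested. Aldh3a1, an aldehyde dehydrogenase, ran from 8.49 to 9.74 in aged and from 9.95 to 10.32 in adult mice (difference -0.66 ± 0.192). All 4 genes separated the ages on every array. They were picked by their p on these same arrays, so the separation adds no support. Such separation was found for 9 of 13383 genes (0.0672%), each of them lower in aged mice. The other 5, noted only after their values were seen, were Moxd1 (-0.37), Rassf10 (-0.40), Sec14l4 (-0.39), Vsnl1 (-0.43) and Zc3h10 (-0.19). The limma adjusted p was 0.9995 for all 9. With 7 arrays an age, chance alone also separates a small share of genes. That share was not worked out, so the number 9 is not a result about these genes.

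The remaining genes with the smallest p among those lower in aged mice were Hdhd5 (-0.37), Dpysl3 (-0.37), Ablim1 (-0.65), a protein that binds actin, Rasl10a (-0.67), Chmp4c (-0.36, or -0.22 without aged ZT4 replicate 2), a component of the membrane-scission machinery, the homeobox gene Irx1 (-0.46) and the calcium channel gene Orai3 (-0.24). Dpysl3 averaged 4.835 in aged mice, also near 4.735, the mean level under which genes were not tested. Among the 12 lower genes, Rgcc included, 10 had the same sign in the light phase under CR. In the dark phase on control diet, where no gene was called (0%), 8 had the same sign. Of all 13383 tested genes, 5817 lay above 0 in the light phase under CR and 6148 in the dark phase. A lower value was thus the more common sign in both, and the counts of 10 and 8 were not tested against it. In that light phase comparison under CR, 5.46% of all genes had an unadjusted p under 0.05. Sostdc1 was -0.58 in it (unadjusted p = 0.0036), while Ltbp1 was -0.10.

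**Figure D3:**
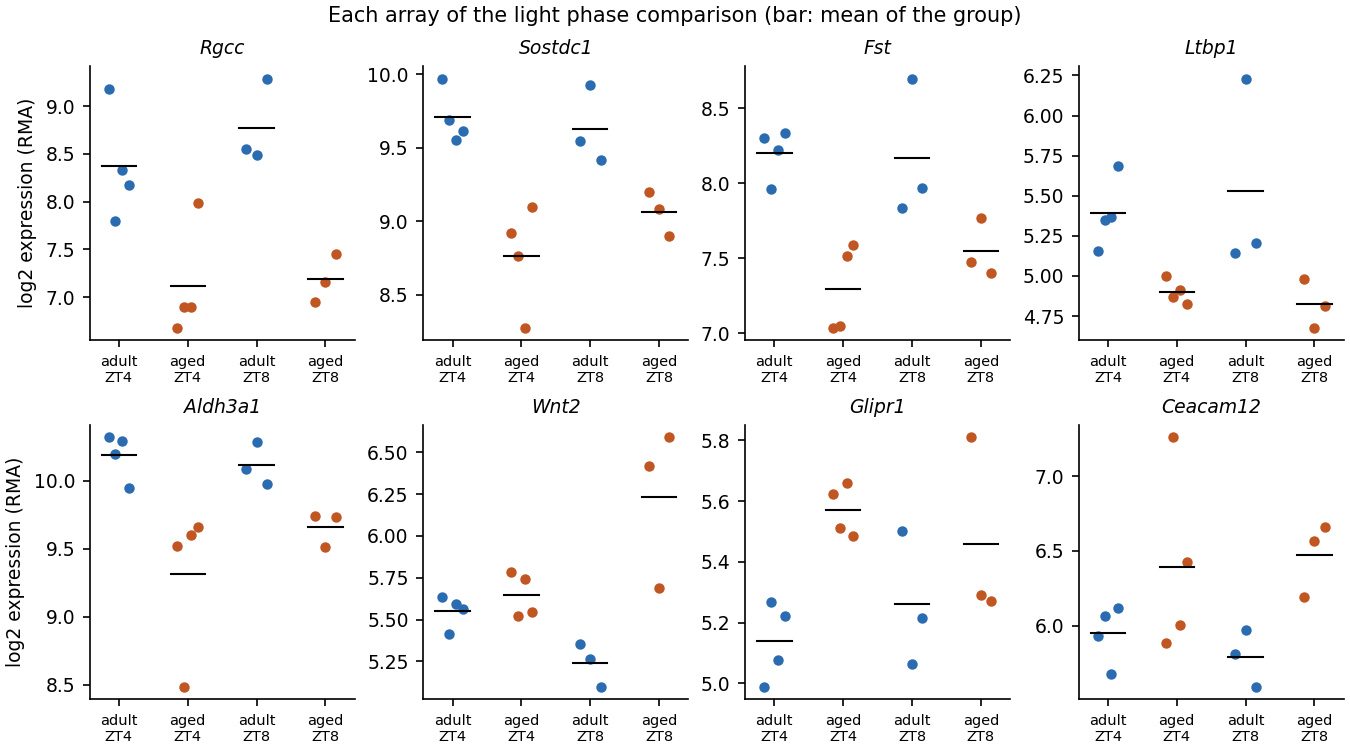
Log2 level (y axis) of 8 genes on each array of the comparison, by age and time (x axis); bars are group means, blue is adult and orange is aged. Sostdc1, Fst, Ltbp1 and Aldh3a1 separate the ages on every array, Rgcc overlaps at ZT4 only, and Wnt2 separates them at ZT8 only.

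Among higher values in aged mice, the Wnt ligand Wnt2 had the smallest p. Its level at ZT4 was 5.78, 5.52, 5.74 and 5.54 in aged mice and 5.63, 5.42, 5.59 and 5.56 in adult mice. At ZT8 it was 6.42, 5.69 and 6.59 in aged mice against 5.35, 5.26 and 5.10 in adult mice. The groups thus overlapped at ZT4 and not at ZT8. With 3 arrays an age at ZT8, chance alone also separates a share of genes, which was not worked out. The difference was 0.54 ± 0.142 (limma, adjusted p = 0.872), made of 0.10 at ZT4 and 0.99 at ZT8 (adjusted p = 0.174). The difference between times was 0.90 (unadjusted p = 0.00216, adjusted p = 0.986). Without the aged ZT8 array of replicate 2, Wnt2 was 1.26 at ZT8 and passed the test (adjusted p = 0.0066), the only gene to do so there.

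Glipr1 was 0.31 ± 0.0882 higher, from 5.27 to 5.81 in aged and from 4.99 to 5.5 in adult mice, which overlapped. The other 10 higher values were Cog2 (0.26), a subunit of a Golgi tethering complex, Synm (0.37), an intermediate filament protein, the coagulation factor gene F10 (0.19), Ceacam12 (0.56), the smooth muscle coactivator Myocd (0.32, or 0.17 without aged ZT4 replicate 2), the defensin Defb2 (0.25), the VEGF receptor Flt1 (0.30), Zc2hc1b (0.25), Fbp2 (0.33), an enzyme of gluconeogenesis, and Cc2d2a (0.48), a gene of the ciliary base. Adult means of F10 (4.68), Myocd (4.78), Zc2hc1b (4.83) and Defb2 (4.91) lay near 4.735, the mean level under which genes were not tested. Of the 12 higher genes, 9 had the same sign in the light phase under CR and 7 in the dark phase on control diet. Of all 13383 tested genes, 5817 and 6148 lay above 0 in these comparisons. The counts of 9 and 7 were not tested against those numbers.

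Several clock genes had higher means at ZT8 than at ZT4 in both ages. Per3, a repressor of the loop, averaged 6.94 at ZT4 and 8.44 at ZT8 in aged mice, beside the adult means above. Dbp, an output factor, averaged 6.72 and 8.13 in adult mice against 6.17 and 8.41 in aged mice. Per2, also a repressor, averaged 6.16 and 7.19 in adult mice against 6.28 and 7.35 in aged mice.

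Of the 19 core clock genes, 16 were bright enough to test, and 0 of 16 were called by limma (0.00747% of all genes), with a median of -0.07. The only one of the 16 at an unadjusted p under 0.05 (2.05% of all genes) was Npas2, a partner of Arntl, at 0.26 ± 0.119 (unadjusted p = 0.0312). It ran from 7.28 to 8.49 in aged and from 7.26 to 8.24 in adult mice. The activators Arntl and Clock stood at -0.28 ± 0.351 and 0.08 ± 0.163. The repressors stood at 0.10 for Per1, 0.14 for Per2, 0.07 for Per3, -0.16 for Cry1 and -0.23 for Cry2. The output and accessory factors ran from -0.23 (Nfil3) to 0.05 (Ciart), with Dbp at -0.13 ± 0.237, Tef at -0.19 ± 0.117 and Nr1d2 at -0.11 ± 0.161. Without aged ZT4 replicate 2, Clock was -0.0041, Per3 -0.13, Tef -0.10 and Ciart 0.019. The intervals were too wide to show that these genes were alike: that of Arntl ran from -0.98 to 0.42. The signs for Clock, Per3, Dbp, Hlf, Bhlhe40, Rora and Ciart turned under at least 1 alternative, none of them a change of scaling.

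**Figure D4:**
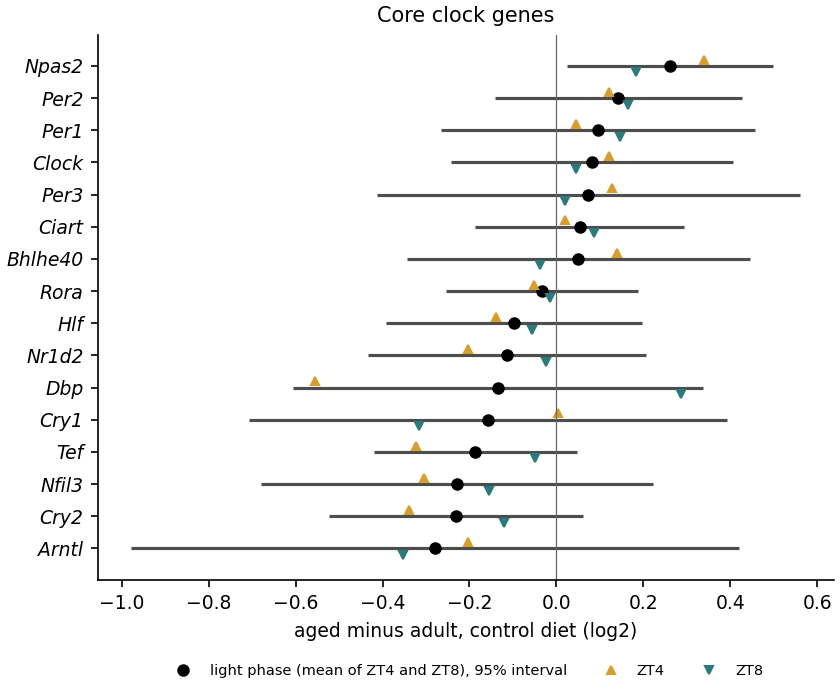
Aged minus adult difference (x axis, log2) of the 16 core clock genes tested (y axis); black points with bars are the light phase mean with its 95% interval, triangles are ZT4 (up) and ZT8 (down). All black points lie between -0.28 and 0.26, and only the interval of Npas2 excludes 0.

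Differences between light phase ages on control diet and under CR were also examined for the clock. No gene passed that test over all genes (0 of 13383, 0%; 345, or 2.58%, at an unadjusted p under 0.05, and from 199 to 559 with single arrays left out). Arntl was -0.28 on control diet and 0.72 under CR (difference of differences -1.002, limma, unadjusted p = 0.0396). Dbp was -0.13 and -0.84 (0.71, limma, unadjusted p = 0.0317), and Ciart was 0.05 and -0.28 (0.33, limma, unadjusted p = 0.0487). The other core clock genes tested did not reach an unadjusted p under 0.05.

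Separated by time, limma called 0 of 13383 genes (0%) at ZT4 and 0 (0%) at ZT8. At an unadjusted p under 0.05 the numbers were 1297 (9.69%) at ZT4, with 345 higher (2.58%) and 952 lower (7.11%). At ZT8 they were 51 (0.381%), with 30 higher (0.224%) and 21 lower (0.157%). These numbers depended on single arrays. The ZT4 number was 326 without aged replicate 2, 669 without adult replicate 1 and 854 without adult replicate 3, but 2192 without aged replicate 1 and 1980 without adult replicate 2. The ZT8 number was 142 without adult replicate 1, 89 without aged replicate 2 and 82 without aged replicate 3. The light phase number of 275 went to 158 without aged ZT4 replicate 2, to 180 without aged ZT8 replicate 1, adult ZT4 replicate 1 or adult ZT8 replicate 3, and to 178 without adult ZT8 replicate 2. It went to 649 without adult ZT8 replicate 1, 600 without aged ZT4 replicate 1, 509 without aged ZT4 replicate 4 and 415 without adult ZT4 replicate 2. Tested as a difference between the times, 0 genes passed (0%), and 266 (1.99%) had an unadjusted p under 0.05, a number that ran from 105 without aged ZT4 replicate 2 to 817 without aged ZT4 replicate 1. The light phase difference minus the dark phase difference gave 0 genes (0%), with 284 (2.12%) at an unadjusted p under 0.05 (174 without aged ZT8 replicate 1 to 548 without adult ZT16 replicate 3).

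Genes of oxidative phosphorylation, which build the respiratory chain, had low levels on 1 array. Their median was -0.13 over 17 tested genes, all 17 of them below 0, while 46.3% of all tested genes lay above 0, and none called (0.00747% of all genes); after a further quantile normalization 2 of 17 lay above 0. At ZT4 the median was -0.35, and at ZT8 it was 0.04. Ndufb5, a subunit of complex I, had levels of 9.65, 6.87, 9.62 and 9.44 in the aged mice at ZT4 and of 9.68, 9.50, 9.52 and 9.80 in the adult mice. Cox6c, a subunit of cytochrome oxidase, had levels of 11.03, 8.96, 10.95 and 10.97 against 10.94, 11.06, 11.08 and 11.36. In both, the array of replicate 2 alone was low. Without it, the ZT4 median of the list was -0.04 and the light phase median 0.02.

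Other lists also had medians below 0 at ZT4 that lay nearer to 0 without that array, with 0 members called in each. Proteasome genes (14 tested) had a median of -0.17 at ZT4, -0.04 without that array and 0.06 at ZT8. Heat shock and chaperone genes (9 tested), such as Hspe1 and Hsph1, had medians of -0.21, -0.12 and -0.03. DNA replication genes (21 tested) had medians of -0.22, -0.12 and 0.13, and at ZT8 all 21 lay above 0. Class I antigen presentation genes (7 tested), among them H2-K1 and H2-T23, had medians of -0.19, -0.10 and 0.05. Over all tested genes the medians were -0.02, -0.01 and 0.00. The 3′ minus 5′ signal is high on that array, and its part in these medians was not tested.

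The uracil glycosylase Ung, a DNA repair gene, had levels of 7.34, 5.31, 6.58 and 7.22 in aged mice at ZT4 against 7.78, 7.79, 7.87 and 8.38 in adult mice. There every aged array lay below every adult array (-1.34, limma, unadjusted p = 0.00072), replicate 2 being the lowest. Ung was named by its p on these same arrays, so the separation adds no support. The share of all genes so separated at ZT4 was not worked out. Of all genes, 7.11% were lower in aged mice at ZT4 with an unadjusted p under 0.05. At ZT8 the levels were 8.68, 8.81 and 9.10 against 8.22, 8.88 and 8.60, which overlapped (0.29). The light phase difference of Ung was -0.53, or -0.31 without aged ZT4 replicate 2.

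**Figure D5:**
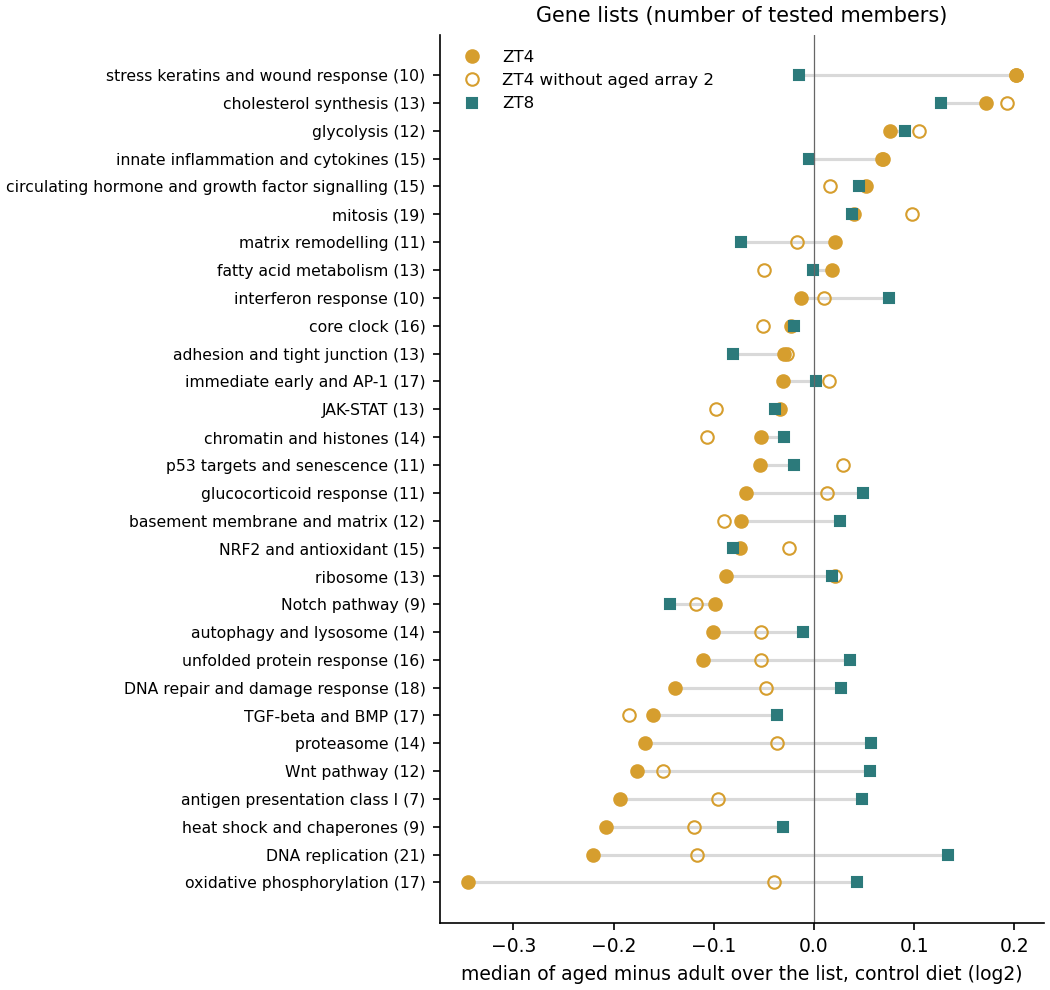
Median aged minus adult difference (x axis, log2) of each functional gene list (y axis, tested members in brackets) at ZT4 (filled circles), at ZT4 without the aged array of replicate 2 (open circles) and at ZT8 (squares). Oxidative phosphorylation moves from -0.35 to -0.04 when that array is left out, while cholesterol synthesis stays above 0 in all 3.

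Cholesterol synthesis genes had the opposite sign. All 13 tested were above 0 in the light phase (median 0.11), against 46.3% of all tested genes. That holds for the mean of the 2 times only: 3 of the 13 lay below 0 at ZT4, and 3 at ZT8. Insig1, a sterol sensor, stood at 0.61 ± 0.384, and at 0.27 ± 0.371 without aged ZT4 replicate 2. Idi1, an enzyme of isoprenoid synthesis, stood at 0.35 ± 0.297, and at 0.21 ± 0.304 without it. None was called (0.00747% of all genes) or reached an unadjusted p under 0.05 (2.05%), and 13 of 13 stayed above 0 with each array centred or quantile-normalized again. The list's median was 0.13 without that array, 0.16 under CR in the light phase and -0.12 in the dark phase on control diet. Insig1 on it was 11.44, and on the other 6 aged arrays it lay between 8.09 and 9.28.

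Mitosis genes had a median of 0.04 over 19 tested in the light phase (0.06 without aged ZT4 replicate 2), with 0 called and 0 at an unadjusted p under 0.05. In the dark phase their median was -0.47, with 17 of 19 at an unadjusted p under 0.05 (1.64% of all genes) and 0 called. Aurkb, a mitotic kinase, was 0.46 in the light phase and -0.48 in the dark phase.

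Signalling lists had small medians; each is given with, and then without, aged ZT4 replicate 2. Notch pathway genes (9 tested) had medians of -0.133 and -0.135. The receptor Notch1 stood at -0.31 ± 0.119 (limma, unadjusted p = 0.0115), and at -0.21 ± 0.117 without that array. Its target Hes1 stood at -0.26 ± 0.171, and at -0.23 ± 0.177 without it. TGF-beta and BMP genes (17 tested) had medians of -0.06 and -0.09, the first of which turned to 0.01 after a further quantile normalization, with the ligand Bmp7 at -0.19. NRF2 and antioxidant genes (15 tested) had medians of -0.07 and -0.015, with the glutathione transferase Gstm1 at -0.27 and Gclc, which makes the first step of glutathione synthesis, at -0.40. Stress keratins and wound genes (10 tested) had medians of 0.079 and 0.079, with Krt6a at 0.22. Among glucocorticoid targets (11 tested, medians 0.04 and 0.02), Fkbp5 was 0.53 ± 0.281 and Sgk1 was -0.38 ± 0.222, or -0.24 without that array. Fkbp5 at ZT8 was 7.72, 7.83 and 7.90 in aged mice against 6.87, 6.80 and 6.91 in adult mice (0.95, limma, unadjusted p = 0.0272). At ZT4 the ages overlapped, and the share of all genes that separate the ages at ZT8 was not worked out.

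Markers of skin compartments gave no calls either. Basal markers had a median of -0.03 over 12 tested and suprabasal differentiation markers -0.02 over 13, and both signs turned without aged ZT4 replicate 2 (0.0094 and 0.016). Bulge stem cell markers had a median of -0.08 over 9 (-0.06 without it). Their transcription factor Sox9 stood at -0.43 ± 0.313, and at -0.75 ± 0.295 without that array, on which its level was 9.88; the defining bulge markers Cd34 and Lgr5 were under the filter. Krt79, a keratin of the upper hair follicle and sebaceous duct, was -0.93 ± 0.402 (limma, unadjusted p = 0.0235). It ran from 5.85 to 7.97 in aged and from 7.46 to 9.07 in adult mice. The level of 5.85 was on aged ZT4 replicate 2, without which the difference was -0.70 ± 0.407.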

How the data were processed

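RNA of epidermal stem cells was hybridised to Affymetrix mouse PM arrays. Amplification began from 25 ng of RNA and ran for 17 cycles, and 8 µg of cDNA carried the biotin label, per the labels' protocols. The deposited values are log2 expression levels that the authors made with RMA, per the submitters' processing notes; version, genome build and annotation are not given in the sources used here. They were used as deposited, so a further normalization was tried only as an alternative. The table holds 45140 probe sets on 102 arrays; 28898 carried 1 gene symbol in the platform annotation and were used, 551 carried several, 15588 carried none and 103 were controls. The brightest probe set stood for a gene (17097 genes). Genes with a mean under the 30th percentile of probe set means (4.735) were left out of tests, which kept 13383. Arrays give no read depth: the number of arrays limits the precision. Array medians of the 14 arrays lay between 5.49 and 5.63, and no 2 arrays were identical.

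limma 3.58.1 (R 4.3.3) fitted a mean for each of 24 groups on all 102 arrays, which share 1 estimate of spread. The light phase contrast is the mean of the ZT4 and ZT8 differences, so time point is a factor; p-values were adjusted by Benjamini-Hochberg over all tested genes (threshold 0.05). The pipeline was tested on simulated data. Rgcc in other mice was tested by exact permutation of ages within time points. Deviations of same-numbered aged and adult arrays correlated from -0.05 to 0.66, not all above 0.1. These values cannot settle whether the numbers pair the samples. The main fit left the samples unpaired, and the replicate block was run as an alternative. Nothing says how many mice an array holds beyond the series' plan of 1 mouse per diet group and day, and p-values measure the spread between arrays.

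The members, lists and tests were chosen with earlier results of these data known. Named genes are the 12 smallest p in each direction, those past the threshold first by size, then the core clock list and members among the 4 smallest p of each other list; clone names were left out. Alternatives covered the arrays in the fit, a replicate block, scaling, the filter, probe sets, array weights, covariates for Xist and RNA quality, limma's trend and robust options, and leaving out each array. 1 further alternative was chosen after seeing the data. Promoter sequences are RefSeq's, on GRCm38.p6.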

Additional observations from a re-analysis of the deposited data

Results flagged for a closer look

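Among the 167 groups of 4 to 6 arrays examined for a value far from the others, 17 held one, and chance gives about 1 in 20. Of these, 12 were values of the aged ZT4 array of replicate 2. Its 3′ minus 5′ signal of Actb and Gapdh was 0.412, against -0.108 to -0.03 on the other 3 arrays of its group. On it Cox6c was 8.96 (others 10.95 to 11.03), Ndufv1 8.75 (10.70 to 10.94), Ndufb5 6.87 (9.44 to 9.65), Hspe1 7.90 (10.43 to 10.59), H2ax 5.20 (7.69 to 8.09), Aurkb 8.33 (9.19 to 9.36), Aldh3a1 8.49 (9.52 to 9.66) and Orai3 4.95 (5.34 to 5.38). Values above the others on that array were Sox9 at 9.88 (7.13 to 7.44), Myocd at 6.09 (4.84 to 4.95) and Synm at 5.83 (5.24 to 5.25). Of the 72 named genes, 24 moved by over 1.5 times in their light phase difference, or turned in sign, without this array; Sox9 went from -0.43 to -0.75, Myocd from 0.32 to 0.17 and H2ax from -0.38 to -0.03.

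Rgcc on the aged ZT4 array of replicate 4 was 7.98, against 6.68 to 6.90 on the other 3. In the adult group at ZT4, Ung was 8.38 on replicate 4 (others 7.78 to 7.87), Trp53bp1 was 9.76 on replicate 3 (9.92 to 9.94), Sprr2d was 4.44 on replicate 1 (5.02 to 5.12) and the 3′ minus 5′ signal was 0.074 on replicate 2 (-0.048 to -0.032).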

How the results depend on the processing

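The light phase count of 1 gene (Rgcc) became 0 in 6 of the 12 alternatives: only the 14 arrays compared, median centring, no filter on dim genes, array weights, the replicate block, and the Xist covariate without aged ZT4 replicate 2, which was chosen after seeing the data. The count of genes lower in aged mice likewise became 0 in the first 5 of these. Rgcc itself ranged from -1.44 to -1.36 (adjusted p 0.0269 to 0.274). With single arrays left out, both counts ranged from 0 to 1. With the replicate block, 0 genes were called and 524 had an unadjusted p under 0.05. Of the 14 arrays, 6 correlated best with their own number. That comes from the data and not the design, and it cannot settle whether the numbers pair the arrays. The block was not run for the contrasts with the dark phase and CR. The ZT8 count of 0 became 3 with array weights (Il18 -1.31, Thsd4 -0.60 and Wnt2 1.18; Il18 and Thsd4 are named after their values were seen), and ranged from 0 to 1 with single arrays left out. The counts at ZT4 and of the differences between times, phases and diets stayed 0 in every alternative run. At an unadjusted p under 0.05, the light phase count ranged from 188 to 867 over the alternatives, the ZT4 count from 353 to 1664 and the ZT8 count from 30 to 267. The cause of these changes was not tested.

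Of 1835 values of the 71 other named genes, 1812 kept their direction and side of the threshold and 23 turned, in 10 genes. With array weights, Clock became -0.061, Per3 -0.132, Bhlhe40 -0.081, Rora 0.052 and Tgfb3 0.069. With the Xist covariate and without aged ZT4 replicate 2, Per3 became -0.121, Hlf 0.037, Bhlhe40 -0.071 and Rora 0.031. With the mean of all probe sets, Tpx2 became -0.042. With single arrays left out, Clock ranged from -0.016 to 0.150, Per3 from -0.130 to 0.195, Dbp from -0.241 to 0.0030, Hlf from -0.192 to 0.031, Bhlhe40 from -0.030 to 0.148, Rora from -0.093 to 0.028, Ciart from -0.035 to 0.105 and Ndufb5 from -0.464 to 0.00064.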

Other observations

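Besides Rgcc, 8 of the 13383 genes differed by more than 1 log2 unit, and none passed the test. Of these, 5 are the sex-linked or Y-encoded genes Xist (-1.46), Eif2s3y (1.19), Ssty1 (1.37), Ssty2 (1.78) and Orly (1.25), and Astx6 was 1.53; at ZT4 these 6 ran from -3.05 (Xist) to 3.87 (Ssty2), beside Xist above the Y-linked genes on 1 of 4 aged and 3 of 4 adult arrays.

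Slc15a2, a transporter of small peptides, was -2.16 ± 0.949 (unadjusted p = 0.0254). It was under a log2 level of 6 on 3 of 7 aged and 0 of 7 adult arrays of the comparison, and on 22 arrays of the whole series, over a range from 4.16 to 10.07. Hes7, a repressor of the Notch pathway, was 1.30 ± 0.534 (unadjusted p = 0.0172). It was under 6 on 2 of 7 adult and 0 of 7 aged arrays, and on 9 of the whole series. Both genes were picked after their values were seen.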
